A study of Homo sapiens with 16 samples.

Results

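The metallothionein and zinc response genes MT2A, MT1E, MT1X, MT1F, MTF1 and SLC30A1 were followed by name through the count table of an RNA-seq experiment on 2 triple-negative breast cancer cell lines. They are 6 of the 58735 genes listed, and all 6 were among the 17647 genes with enough reads to be tested. Both are established human lines labelled wild type, MDA-MB-231 and SUM159, the latter titled SUM159PT. Cells received DMSO as the solvent control or 8 uM YES1i for 48 h. YES1i is the compound CH6953755, which inhibits YES1, a kinase of the SRC family. The 4 groups are thus MDA-MB-231 with DMSO, MDA-MB-231 with YES1i, SUM159 with DMSO and SUM159 with YES1i, with 4 libraries each. MDA-MB-231 cells grew in RPMI and SUM159 cells in Ham's F12, so line and medium cannot be told apart. The replicates are described as technical, so p-values measure only the spread between these libraries, and no second inhibitor or loss of YES1 was analysed here.

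The libraries held 15876171 to 36261542 counted reads. In bulk RNA, a shift in cell state and a change of RNA per cell cannot be told apart. KRT8 and KRT18 were detected in both lines, ESR1 was at most 0.734 CPM (reads scaled to library size and composition) and PGR at most 0.115 CPM in any group, while the epithelial gene CDH1 was at 0 in all SUM159 libraries and EPCAM was at 0.0161 CPM there in DMSO. The receptor gene ERBB2 was measured more precisely than ESR1. The SE of its log2 change with YES1i was 0.06 in each line, against 0.86 and 0.45 for ESR1. Of the mesenchymal-like markers in DMSO, VIM was lower in MDA-MB-231 than in SUM159 (log2 difference -1.24), and CD44 (0.40) and AXL (1.11) were higher. The mitochondrial ribosomal RNA share rose from 0.644% to 1.33% of reads between the DMSO and YES1i means in MDA-MB-231 and from 0.731% to 1.34% in SUM159. Of 10 leukocyte, endothelial and fibroblast markers, 6 were tested, and 3 were higher and 0 lower with YES1i in each line. Over all tested genes, 26.8% were higher and 22.1% lower in MDA-MB-231, and 25.1% higher and 26.5% lower in SUM159. The summed level of the 10 markers was 4.85 to 7.41 CPM and 14.1 to 15.6 CPM in MDA-MB-231 with DMSO and YES1i, and 25.5 to 31.0 CPM and 36.3 to 40.0 CPM in SUM159. CD3E was at 0 in 3 of the 4 groups, DCN in both MDA-MB-231 groups and CDH5 in both SUM159 groups. The markers higher with YES1i were PECAM1 (log2 fold change 1.43), VWF (1.58) and LUM (2.28) in MDA-MB-231. In SUM159 they were CD14 (1.69), VWF (1.55) and DCN (1.12). The fibroblast markers DCN and PDGFRA were far higher in SUM159 with DMSO (MDA-MB-231 minus SUM159, -10.47 and -9.12). The part of these shifts in the results below was not tested. SUM159 DMSO replicate 1 and SUM159 YES1i replicate 2 stood furthest from the other libraries of their groups by a chi-square of the read counts. That measure grows with depth, and SUM159 DMSO replicate 1 was the deepest library. By correlation of log2 CPM, that replicate was at 0.9901 to 0.9916 with its group, against 0.989 to 0.9904 among the rest. It was thus not the least alike by correlation. SUM159 YES1i replicate 2 was, at 0.9864 to 0.9892 against 0.9899 to 0.9915. Every count of changed members was also taken without these 2 libraries.

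Metallothioneins are small cysteine-rich proteins that bind zinc, copper and cadmium and buffer the free zinc of the cell. MTF1 is the zinc-sensing transcription factor that binds metal response elements in the promoters of metallothionein genes and of SLC30A1, which encodes ZnT1, the exporter that moves zinc out across the plasma membrane. Metallothionein genes are also known to respond to glucocorticoids and to oxidative stress. The 4 metallothionein genes lie on the forward strand of chromosome 16 in hg38, MT2A (ENSG00000125148) at chr16:56608199-56609497, MT1E (ENSG00000169715) at chr16:56625475-56627112, MT1F (ENSG00000198417) at chr16:56657694-56660698 and MT1X (ENSG00000187193) at chr16:56682424-56684196. MTF1 (ENSG00000188786) at chr1:37809567-37859620 and SLC30A1 (ENSG00000170385) at chr1:211571568-211578742 lie on the reverse strand of chromosome 1.

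The promoters of 4 of the 6 genes were found in the RefSeq promoter table (GRCh38.p14), and 3 are shown because they hold the core of the metal response element, TGCACNC or TGCGCNC on either strand. Each line gives the 250 bases before the transcription start, 5′ to 3′ on the gene's strand, with the motif copies in capitals. The windows are chr16:56608334-56608583 for MT2A, chr16:56682220-56682469 for MT1X and chr1:211579162-211579411 for SLC30A1.
MT2A: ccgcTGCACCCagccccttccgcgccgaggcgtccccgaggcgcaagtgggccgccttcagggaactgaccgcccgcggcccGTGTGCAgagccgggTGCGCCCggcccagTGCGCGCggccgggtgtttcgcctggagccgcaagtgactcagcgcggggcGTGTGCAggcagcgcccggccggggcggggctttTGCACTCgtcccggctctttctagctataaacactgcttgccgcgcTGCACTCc
MT1X: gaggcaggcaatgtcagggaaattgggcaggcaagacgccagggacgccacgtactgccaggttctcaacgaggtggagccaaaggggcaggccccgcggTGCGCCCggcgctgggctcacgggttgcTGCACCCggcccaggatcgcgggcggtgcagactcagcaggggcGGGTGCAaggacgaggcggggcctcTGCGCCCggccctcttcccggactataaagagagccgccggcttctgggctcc
SLC30A1: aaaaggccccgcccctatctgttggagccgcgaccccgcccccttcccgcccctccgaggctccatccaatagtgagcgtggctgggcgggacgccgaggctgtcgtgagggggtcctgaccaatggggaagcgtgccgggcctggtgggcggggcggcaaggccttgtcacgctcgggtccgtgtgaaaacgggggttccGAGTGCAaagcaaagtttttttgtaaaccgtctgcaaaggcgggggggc
MT2A had 7 copies, whose first bases lay 246, 168, 153, 139, 88, 54 and 8 bases before the start. MT1X had 4 copies, at 150, 122, 78 and 53 bases, and SLC30A1 had 1, at 49 bases. The MTF1 window held 0 copies. Of 27305 promoters of the same length, 24.7% held at least 1 copy, 0.366% at least 4 and 0.0330% at least 7. A match is a run of letters and was not tested as a binding site. The gene model behind the counts starts upstream of the RefSeq start of MT2A, so the MT2A window lies within a longer annotated transcript there. The gene model of MT1X also starts upstream of its RefSeq start, within the window shown, while that of SLC30A1 starts downstream of its RefSeq start, so the distances hold for the RefSeq starts only.

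MT2A and MT1E, the metallothionein genes with the most reads, fell with YES1i in SUM159 and did not pass the test in MDA-MB-231, whereas MT1X rose in MDA-MB-231 and did not pass in SUM159. MT1F rose in both lines, from a level close to the detection limit in SUM159. The change with YES1i differed between the lines for all 4 metallothionein genes. SLC30A1 rose by a ratio of 1.26 in each line, and MTF1 fell in SUM159. Calls are from edgeR's quasi-likelihood test at a Benjamini-Hochberg adjusted p under 0.05 over all 17647 genes. In MDA-MB-231, 3 of the 6 genes were called, all higher, against 48.9% of all tested genes called, 26.8% higher and 22.1% lower. In SUM159, 5 of 6 were called, 2 higher and 3 lower, against 51.6% of all genes, 25.1% higher and 26.5% lower. MT1F passed the low-count filter only through its reads in MDA-MB-231. A fit of the SUM159 libraries alone left it out and called 4 members. The difference between the lines was called for 4 of 6, with 3 positive and 1 negative, against a background of 31.1%, 19.1% positive and 12.1% negative. The MDA-MB-231 count is at its background, and with 6 genes nothing is read from the other counts. Leaving out both SUM159 libraries that stood apart gave 3, 5 and 4 members called, though MT1F then missed the threshold for the difference (adjusted p = 0.0646) and MTF1 passed it (0.28 on the log2 scale, adjusted p = 0.0435).

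**Figure D1:**
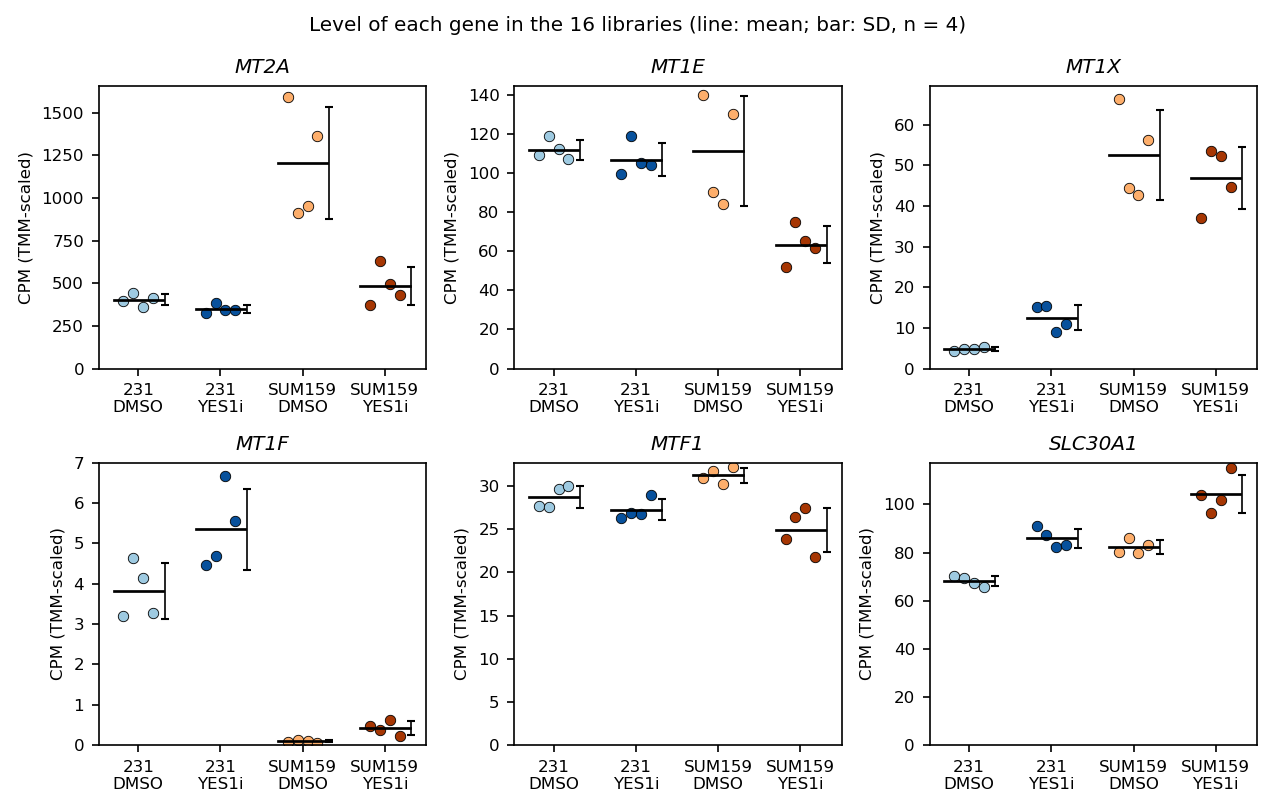
Level of each of the 6 genes in CPM (linear axis from 0, TMM-scaled) in each of the 16 libraries, grouped by line (231 is MDA-MB-231) and treatment; points are libraries, lines are means and bars are SD with n = 4. MT2A is highest in SUM159 with DMSO, at 910 to 1594 CPM, MT1X stands at 4.31 to 5.33 CPM in MDA-MB-231 with DMSO and at 8.88 to 15.3 CPM with YES1i, and SLC30A1 is higher with YES1i in both lines.

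MT2A, the main metallothionein of most human cells, was at 1594, 910, 956 and 1363 CPM in the SUM159 DMSO libraries and at 374, 631, 498 and 431 CPM with YES1i. The groups did not overlap, and DMSO replicates 1 and 4 were the highest of all 16 libraries. The mean fell from 1206 ± 329 to 484 ± 110 CPM (SD, n = 4 each), a DMSO level 2.49 times that with YES1i. The log2 fold change was -1.32 (SE 0.19, adjusted p = 6.02e-05), and it lay between -1.47 and -1.16 when each library was left out in turn. In MDA-MB-231, MT2A was at 399, 444, 363 and 411 CPM with DMSO and at 328, 384, 346 and 344 CPM with YES1i. These ranges overlapped, and the log2 fold change of -0.21 (SE 0.19, 95% interval -0.57 to 0.16, adjusted p = 0.400) did not pass. A fit of the MDA-MB-231 libraries alone, whose spread is smaller than that of SUM159, called it at -0.25 (adjusted p = 0.00149). The change in MDA-MB-231 minus that in SUM159 was 1.11 on the log2 scale (SE 0.27, adjusted p = 0.00613). This call was lost in an edgeR fit with replicate number as a block (1.099, adjusted p = 0.0623).

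MT1E had the same order of changes at a lower level. Its SUM159 libraries were at 140, 90.3, 84.2 and 130 CPM with DMSO and at 51.8, 74.7, 65.3 and 61.7 CPM with YES1i, again without overlap and again with DMSO replicates 1 and 4 on top. The log2 fold change was -0.81 (SE 0.16, adjusted p = 6.48e-04), a DMSO mean 1.75 times the YES1i mean. MDA-MB-231 held 109, 119, 112 and 107 CPM with DMSO and 99.3, 119, 105 and 104 CPM with YES1i, which overlap almost fully (-0.06, SE 0.15, adjusted p = 0.776). The lines differed in the change by 0.75 (SE 0.22, adjusted p = 0.0192). That call was lost without a filter on low counts (0.72, adjusted p = 0.0654) and with replicate number as a block (0.723, adjusted p = 0.0783).

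MT1X moved in the other line. In MDA-MB-231 it rose from 4.31, 4.74, 4.85 and 5.33 CPM with DMSO to 15.1, 15.3, 8.88 and 10.9 CPM with YES1i. Every treated library was above every control library, and the mean went from 4.81 ± 0.420 to 12.5 ± 3.18 CPM (SD, n = 4), a ratio of 2.61. The log2 fold change was 1.37 (SE 0.23, adjusted p = 1.72e-04). SUM159 held 66.4, 44.3, 42.8 and 56.2 CPM with DMSO and 37.1, 53.4, 52.3 and 44.7 CPM with YES1i. These overlapped, with a log2 fold change of -0.17 (SE 0.17, 95% interval -0.50 to 0.16, adjusted p = 0.437), so a fall as large as that of MT2A or MT1E in this line lies outside the interval. The difference between the lines was 1.53 (SE 0.29, adjusted p = 8.43e-04).

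MT1F was close to the detection limit in SUM159, with 3, 2, 2 and 1 reads in the DMSO libraries and 8, 8, 11 and 5 reads with YES1i. Every treated library had more reads than every control library. Summed over the group, 32 reads against 8 gave a ratio of 4.49 after scaling for depth, with an exact 95% interval of 2.03 to 11.3 that covers counting error only. The fitted log2 fold change was 2.10 (SE 0.50, adjusted p = 7.34e-04). In MDA-MB-231, MT1F was at 3.20, 4.63, 4.14 and 3.28 CPM with DMSO and 4.47, 4.69, 6.67 and 5.55 CPM with YES1i. These ranges overlap, and the log2 fold change of 0.50 (SE 0.19, adjusted p = 0.0275) depended on single libraries. Leaving out replicate 1 or 4 of the DMSO group gave an adjusted p of 0.0927 or 0.0897, leaving out replicate 3 or 4 of the treated group gave 0.143 or 0.062, and keeping every gene without a filter on low counts gave 0.0725. The difference between the lines was -1.60 (SE 0.53, adjusted p = 0.0217), and it too lost its call without SUM159 DMSO replicate 1 (0.0621) or SUM159 YES1i replicate 3 (0.0685) and with limma-voom (0.0745).

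**Figure D2:**
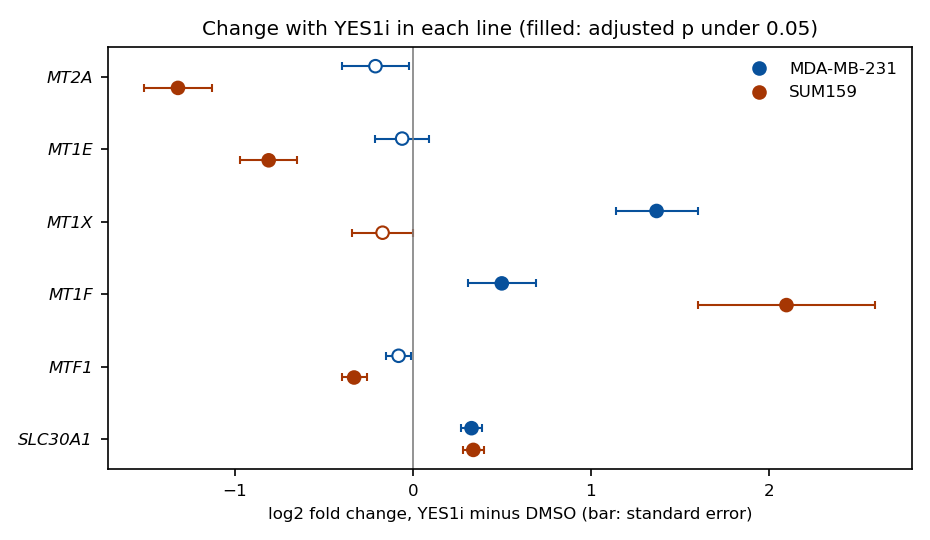
Log2 fold change of YES1i against DMSO for the 6 genes in MDA-MB-231 and SUM159, with SE bars; filled points have an adjusted p under 0.05. MT2A (-1.32) and MT1E (-0.81) fell in SUM159, MT1X rose in MDA-MB-231 (1.37), and the SLC30A1 points lie at 0.33 and 0.34.

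The composition of the metallothionein reads changed in both lines. The summed level of the 4 genes was 525 ± 36.9 CPM (SD, n = 4; 484 to 573) in MDA-MB-231 with DMSO and 475 ± 33.1 CPM (447 to 523) with YES1i, 2 ranges that overlap. In SUM159 it was 1369 ± 368 CPM (1045 to 1801) with DMSO and 594 ± 127 CPM (464 to 760) with YES1i, without overlap. MT2A alone made up 77.1%, 73.8%, 88.0% and 81.2% of the summed reads in the 4 groups, in the order MDA-MB-231 DMSO, MDA-MB-231 YES1i, SUM159 DMSO and SUM159 YES1i, so the sum followed MT2A.

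Within a library, reads of one metallothionein per 100 reads of MT2A do not depend on depth or scaling. For MT1X this ratio was 1.20 (1.07 to 1.34) with DMSO and 3.58 (2.57 to 4.59) with YES1i in MDA-MB-231. In SUM159 it was 4.41 (4.12 to 4.87) with DMSO and 9.82 (8.46 to 10.5) with YES1i. MT1X therefore gained on MT2A in both lines without overlap between treated and control libraries, through more MT1X in MDA-MB-231 and less MT2A in SUM159. The MT1E ratio was 27.7 (26.0 to 30.8) with DMSO and 30.4 (30.2 to 31.0) with YES1i in MDA-MB-231, which overlap. In SUM159 it was 9.26 (8.80 to 9.92) and 13.2 (11.8 to 14.3), which do not. These ratios serve to compare groups; they are not relative amounts of the transcripts, whose lengths differ.

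**Figure D3:**
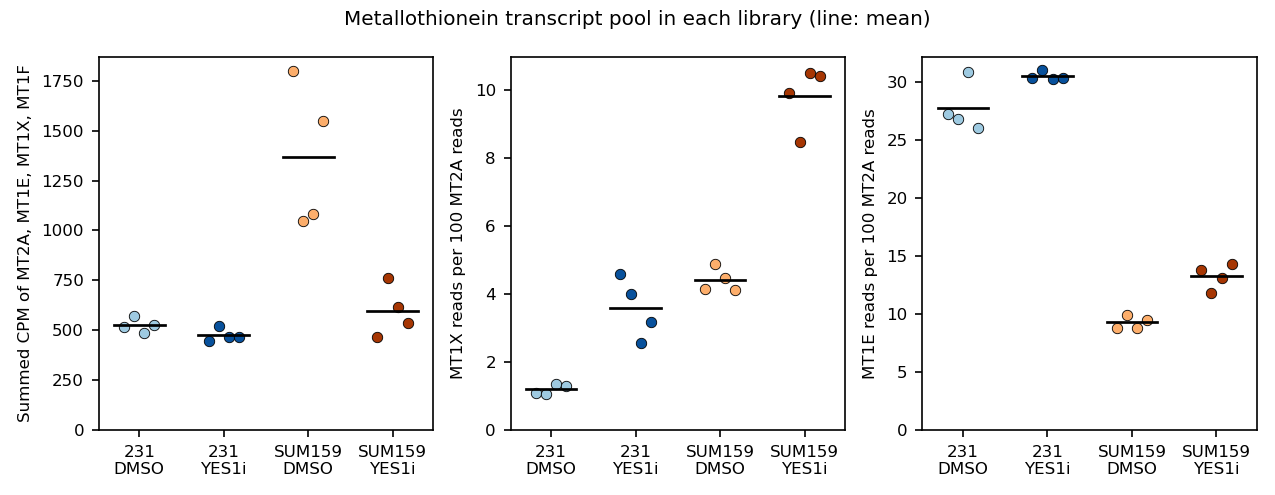
Left, summed CPM of MT2A, MT1E, MT1X and MT1F; middle, MT1X reads per 100 MT2A reads; right, MT1E reads per 100 MT2A reads, each for the 16 libraries by group with the mean as a line (231 is MDA-MB-231). The sum is highest in SUM159 with DMSO (1045 to 1801 CPM), while the MT1X ratio is higher with YES1i in both lines.

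MT2A, MT1E and MT1X also varied together between libraries of one group in SUM159, and in MDA-MB-231 only MT2A and MT1E did. After subtracting the group means of log2 CPM, MT2A and MT1E correlated at r = 0.94 over the 16 libraries, with 0.96 over the 8 of SUM159 and 0.72 over the 8 of MDA-MB-231. MT2A and MT1X correlated at 0.95 in SUM159 and at 0.16 in MDA-MB-231, and MT1E and MT1X at 0.96 and 0.22. These values are descriptions without a test, and libraries share scaling and any handling. Without that subtraction, the correlation of MT2A with MT1E over the 16 libraries was 0.26, since MT1E per MT2A differs between the lines. The coefficient of variation in SUM159 with DMSO was 27.3% for MT2A, 25.2% for MT1E and 21.0% for MT1X, against a median of 7.02% over 11420 genes with at least 5 CPM. MTF1 varied by 2.85% and SLC30A1 by 3.42% in the same libraries, below that median. SUM159 DMSO replicates 1 and 4 held the high values of all 3 genes, and replicate 1 was also the deepest library.

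**Figure D4:**
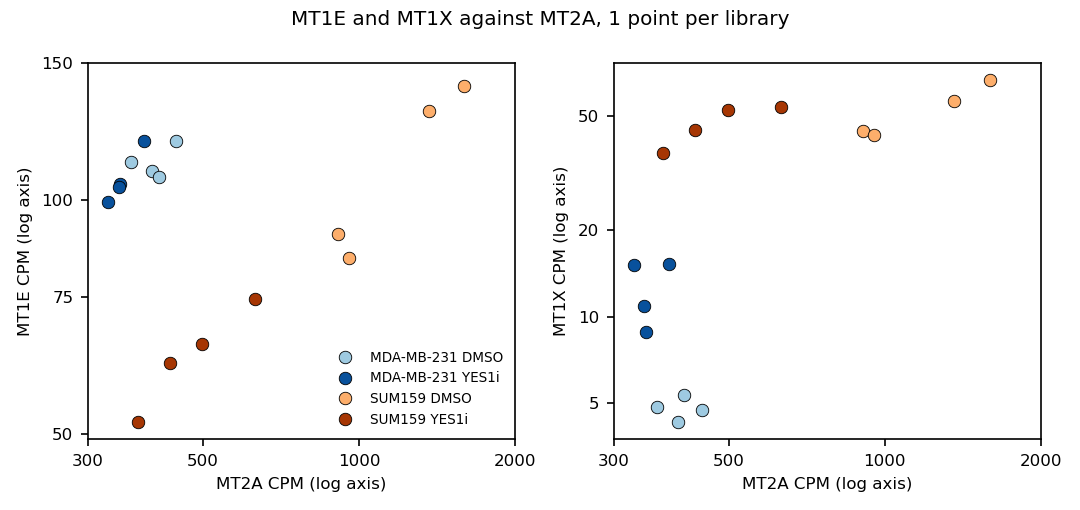
MT1E (left) and MT1X (right) against MT2A in CPM, both axes log, with 1 point per library coloured by group. In SUM159 the 3 genes rise together within each treatment, and MDA-MB-231 with YES1i lies above MDA-MB-231 with DMSO for MT1X (8.88 to 15.3 against 4.31 to 5.33 CPM).

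MTF1, the factor itself, was at 30.9, 31.7, 30.2 and 32.2 CPM in SUM159 with DMSO and at 23.9, 26.4, 27.5 and 21.8 CPM with YES1i. All treated libraries were below all control libraries, with a log2 fold change of -0.33 (SE 0.07, adjusted p = 4.08e-04). In MDA-MB-231 the values were 27.7, 27.6, 29.7 and 30.0 CPM with DMSO and 26.3, 26.9, 26.8 and 29.0 CPM with YES1i. They overlapped (-0.08, SE 0.07, adjusted p = 0.395). The difference between the lines, 0.25 (SE 0.10, adjusted p = 0.0693), missed the threshold with all libraries and passed it without SUM159 YES1i replicate 2 (0.28, adjusted p = 0.039) or replicate 3 (0.30, adjusted p = 0.0334).

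SLC30A1, the zinc exporter, rose in both lines. In MDA-MB-231 it was at 70.1, 69.3, 67.5 and 65.8 CPM with DMSO and at 90.9, 87.5, 82.2 and 83.1 CPM with YES1i (0.33, SE 0.06, adjusted p = 1.08e-05). SUM159 had 80.3, 86.0, 80.0 and 83.1 CPM with DMSO and 104, 96.3, 102 and 115 CPM with YES1i (0.34, SE 0.06, adjusted p = 6.66e-06). The groups did not overlap in either line. The changes differed by -0.01 (SE 0.08, 95% interval -0.16 to 0.15, adjusted p = 0.987), so a difference beyond 0.16 on the log2 scale lies outside the interval. Between libraries of one group, MTF1 and SLC30A1 deviated in opposite directions (r = -0.69 over 16 libraries, -0.71 in MDA-MB-231 and -0.68 in SUM159, as a description).

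Without the compound, the lines differed in 4 of the 6 genes, with 1 higher and 3 lower in MDA-MB-231, against 76.6% of all tested genes called in this comparison, 37.8% higher and 38.7% lower. The 1 higher gene, MT1F, passed the low-count filter only through its reads in MDA-MB-231. The filter therefore favoured its call, and nothing is read from its place in this count. MT1X was lower in MDA-MB-231 by a log2 difference of -3.45 (SE 0.21, adjusted p = 9.24e-10), MT2A by -1.58 (SE 0.19, adjusted p = 4.81e-06) and SLC30A1 by -0.27 (SE 0.06, adjusted p = 7.13e-05). MT1F was higher in MDA-MB-231, with 310 reads in the 4 DMSO libraries against 8 in SUM159, a depth-scaled ratio of 42.2 (exact 95% interval 21.1 to 98.6, counting error only). MT1E did not pass the test, with 112 ± 5.39 CPM in MDA-MB-231 and 111 ± 28.0 CPM in SUM159 (SD, n = 4; 95% interval of the log2 difference -0.30 to 0.30). MTF1 also missed the threshold (-0.12, SE 0.07, adjusted p = 0.137), although its DMSO ranges did not overlap.

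Across the 4 groups, MT2A ran from SUM159 DMSO (1206 CPM) to SUM159 YES1i (484), MDA-MB-231 DMSO (404) and MDA-MB-231 YES1i (350), and only the first step had no overlap of ranges. For MT1E, MDA-MB-231 DMSO, SUM159 DMSO and MDA-MB-231 YES1i overlapped at means of 112, 111 and 107 CPM, and SUM159 YES1i lay below them at 63.3 CPM. MT1X ran from SUM159 with DMSO (52.4 CPM) and YES1i (46.9), which overlap, to MDA-MB-231 YES1i (12.5) and MDA-MB-231 DMSO (4.81), each apart. MT1F ran the other way, with MDA-MB-231 YES1i (5.34 CPM) and DMSO (3.81) overlapping above SUM159 YES1i (0.418) and SUM159 DMSO (0.0914). SLC30A1 was highest in SUM159 YES1i (104 CPM), followed by MDA-MB-231 YES1i (85.9) and SUM159 DMSO (82.4), which overlap, and MDA-MB-231 DMSO (68.2). The MTF1 means ran from 31.3 CPM in SUM159 DMSO, whose range lay above the rest, to 24.9 CPM in SUM159 YES1i.

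Per kilobase of annotated exon, MT2A was the highest of the 6 in each group, at 311 CPM per kb in MDA-MB-231 DMSO and 928 in SUM159 DMSO. MT1E followed, at 106 CPM per kb in both. The next genes differed by line, with SLC30A1 at 12.5, MTF1 at 3.58, MT1X at 2.71 and MT1F at 2.02 CPM per kb in MDA-MB-231 DMSO. In SUM159 DMSO, MT1X came after MT1E at 29.6 CPM per kb, ahead of SLC30A1 at 15.0, MTF1 at 3.90 and MT1F at 0.0484. Annotated exon length exceeds that of the short mature metallothionein mRNA, so the metallothionein levels per kb are understated.

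Few other metallothionein genes were read in these cells. Of 14 further family members and pseudogenes in the table, 8 had 0 reads in all 16 libraries (MT1B, MT1G, MT1H, MT1HL1, MT4, MT1L, MT1CP and MT1IP), and 5 had between 1 and 31 reads in all. A count of 0 allows up to 3 reads, or 0.0859 to 0.194 CPM depending on the library. MT1A alone was tested, at 2.32 ± 0.354 CPM with DMSO and 1.81 ± 0.264 CPM with YES1i in MDA-MB-231 (SD, n = 4; log2 fold change -0.36, SE 0.26, adjusted p = 0.274). It was at 0 in all SUM159 libraries, at least 11.9-fold lower than in MDA-MB-231 with DMSO and at least 10.1-fold lower with YES1i at a floor of 3 reads per library. The metallothionein genes are close copies, and how the authors' counting treated reads that fit several genes is not given in the sources used here. In the GENCODE 29 transcripts, 3.02% of 50-base windows of MT2A, 7.10% of MT1E and 1.22% of MT1F also occurred in another gene, and 0% of MT2A and MT1F did at 75 bases. For MT1X this share was 18.3% at 50 bases and 11.3% at 100 bases, mostly with AC026461.1, an overlapping model on the same strand that had 0 reads. Whether reads shared by both models were left out of the MT1X count cannot be told from the counts.

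Besides SLC30A1, 7 of 9 SLC30 exporter genes were tested. In MDA-MB-231, 4 of the 7 were called higher and 0 lower, against 26.8% and 22.1% of all genes (median log2 fold change 0.13, against 0.03 for all genes). In SUM159 0 of 7 were called, against 51.6% of all genes (median 0.04, against 0.02). SLC30A10, 1 of these 7, had no reads in SUM159, so it could not be called there or for the difference between the lines. Its fitted change of 0.00 enters the SUM159 median. The difference between the lines was called for 1 of the 7, SLC30A9, at 0.25 (adjusted p = 0.0244). That call was lost in 6 of 9 other settings. They include RLE and upper quartile scaling, DESeq2 (adjusted p = 0.0907) and the edgeR fit without a low-count filter (adjusted p = 0.0923). It was also lost without any one of 9 of the 16 libraries. In MDA-MB-231, SLC30A4, which loads zinc into vesicles, rose from 8.99 ± 0.711 to 11.4 ± 0.595 CPM (0.34, SE 0.10, adjusted p = 0.00750), and SLC30A9 from 72.9 ± 3.33 to 84.0 ± 6.02 CPM (0.20, SE 0.06, adjusted p = 0.00607).

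Of 11 tested SLC39 importer genes of 14, 4 rose and 2 fell in MDA-MB-231, and 2 rose and 3 fell in SUM159. Both totals are near the shares of all genes called, 48.9% and 51.6%. SLC39A11 rose in MDA-MB-231, from 12.7 ± 0.869 to 24.7 ± 2.03 CPM (0.96, SE 0.10, adjusted p = 1.76e-09), while in SUM159 it was at 13.5 and 14.0 CPM (0.05, adjusted p = 0.695); the difference was 0.91 (SE 0.14, adjusted p = 7.72e-06). SLC39A14, a plasma membrane importer of zinc, iron and manganese, fell in MDA-MB-231 from 123 ± 4.53 to 88.6 ± 4.30 CPM (-0.47, SE 0.06, adjusted p = 6.04e-08) and rose in SUM159 from 182 ± 4.88 to 211 ± 19.2 CPM (0.22, SE 0.06, adjusted p = 0.00154). The lines differed in that change by -0.69 (SE 0.08, adjusted p = 7.66e-08). SLC39A8, a related importer, fell in both, by 0.34 and 0.29 on the log2 scale (adjusted p = 3.49e-05 and 8.84e-05). SLC39A3 fell in SUM159 from 22.0 ± 3.24 to 15.1 ± 4.07 CPM (-0.54, SE 0.15, adjusted p = 0.00405). SLC39A10, named after its values were seen, was called higher in MDA-MB-231 (0.27, adjusted p = 7.61e-04) and lower in SUM159 (-0.19, adjusted p = 0.0140), and the latter call was lost under RLE scaling (adjusted p = 0.066) and without SUM159 YES1i replicate 1 (0.0778).

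**Figure D5:**
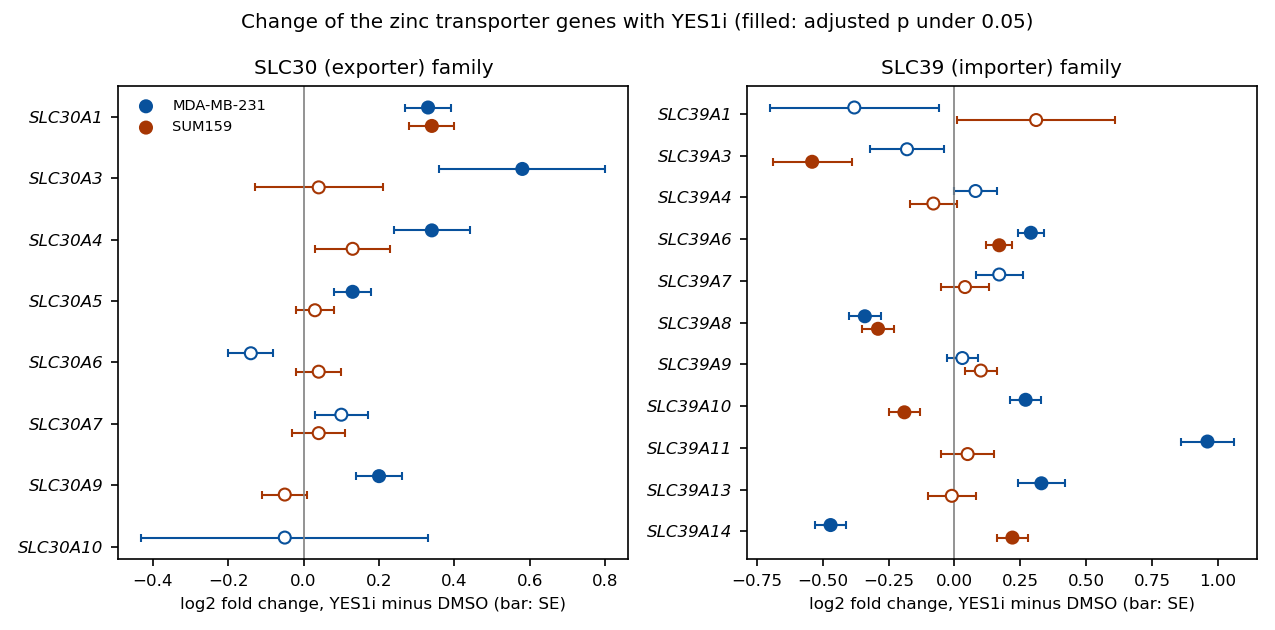
Log2 fold change of YES1i against DMSO, with SE bars, for SLC30A1 and the 7 other tested SLC30 genes (left) and the 11 tested SLC39 genes (right) in each line; filled points have an adjusted p under 0.05. SLC30A1 rose in both lines (0.33 and 0.34), SLC39A11 in MDA-MB-231 (0.96), and SLC39A14 moved in opposite directions (-0.47 and 0.22); SLC30A10 has no SUM159 point because it had no reads there.

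Copper handling genes, whose metal is also bound by metallothioneins, showed 4 of 10 higher and 1 lower in MDA-MB-231 (median 0.33) and 3 higher and 4 lower in SUM159 (median 0.07), against 48.9% and 51.6% of all genes called in either direction. ATP7B, a copper-exporting ATPase, rose in MDA-MB-231 from 10.9 to 16.2 CPM (0.57, SE 0.11, adjusted p = 5.51e-05), and the lines differed by 0.68 (adjusted p = 6.51e-04). ATP7A, its relative, was called higher in MDA-MB-231 (0.90, adjusted p = 1.78e-10), but it overlaps the abundant PGK1, so its count is uncertain. COX17, a copper chaperone for cytochrome oxidase, fell in SUM159 from 31.8 to 20.3 CPM (-0.65, SE 0.09, adjusted p = 1.20e-06), and SOD1, the copper and zinc superoxide dismutase, fell from 166 to 110 CPM (-0.59, SE 0.07, adjusted p = 1.30e-08).

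Of 9 genes for the glucocorticoid receptor and its targets, 3 were higher and 2 lower in MDA-MB-231, and 5 higher and 2 lower in SUM159, against 48.9% and 51.6% of all genes called. ZBTB16, 1 of these 9, had a fitted change of 0.00 with no SE in MDA-MB-231 and could not be called there. TSC22D3, which encodes GILZ, rose in both lines, from 11.9 to 42.7 CPM in MDA-MB-231 (1.84, SE 0.10, adjusted p = 7.16e-13) and from 313 ± 41.6 to 625 ± 65.7 CPM in SUM159 (1.00, SE 0.08, adjusted p = 5.91e-10). SGK1, a kinase, fell in MDA-MB-231 (-1.30, SE 0.10, adjusted p = 4.49e-12) and rose in SUM159 (0.90, SE 0.09, adjusted p = 1.27e-09).

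Of 8 targets of the oxidative stress factor NRF2, 6 were higher and 1 lower in MDA-MB-231 (median 0.66), against 26.8% and 22.1% of all genes. In SUM159, 4 were higher and 1 lower (median 0.21), against 25.1% and 26.5%. HMOX1, which degrades heme, rose from 10.1 ± 0.722 to 21.1 ± 1.35 CPM in MDA-MB-231 (1.07, SE 0.08, adjusted p = 3.44e-12) and from 36.3 ± 1.55 to 99.4 ± 8.13 CPM in SUM159 (1.46, SE 0.07, adjusted p = 1.47e-16). GCLC, a glutathione synthesis enzyme, rose by 0.89 in MDA-MB-231 (adjusted p = 2.17e-12) and by 0.30 in SUM159 (adjusted p = 6.52e-04), and OSGIN1 by 0.74 and 0.75 (adjusted p = 7.49e-08 and 2.87e-07). Of 7 heat shock genes, 2 were higher and 4 lower in MDA-MB-231, and 0 higher and 5 lower in SUM159. Over all genes, 26.8% were higher and 22.1% lower in the first line, and 25.1% higher and 26.5% lower in the second. The chaperone gene HSPH1 fell in both, by 0.36 and 0.78 on the log2 scale (adjusted p = 4.38e-06 and 3.91e-12). HSPB1 fell in SUM159 from 469 to 359 CPM (-0.39, SE 0.06, adjusted p = 2.40e-06) and was called higher in MDA-MB-231 (0.15, adjusted p = 0.0318), a call lost with DESeq2 (0.0527) and on leaving out replicate 1 or 3 of the DMSO group or replicate 2 or 3 of the YES1i group. HSPA1B is nearly identical to HSPA1A and its count is uncertain.

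Over the 16 libraries and 10872 protein-coding genes compared, the genes most like MT2A in log2 CPM were ATP5PF and SEPT2 (Pearson r = 0.980 each) and RAC1 (0.978). RAC1, a small GTPase, had means of 391, 363, 508 and 396 CPM in MDA-MB-231 DMSO, MDA-MB-231 YES1i, SUM159 DMSO and SUM159 YES1i. TWISTNB (0.898), YME1L1 (0.882) and CCNJ (0.881) were most like MTF1. For SLC30A1 they were DDIT3 (0.971), LRP1 (0.966) and NEIL1 (0.963). DDIT3, a stress-induced transcription factor, had means of 5.82, 11.7, 10.8 and 23.6 CPM in the same order, though it overlaps a more abundant gene. ATP5PF, SEPT2, YME1L1, CCNJ, LRP1 and NEIL1 also overlap genes with at least 10% of their reads, so those values are uncertain. These correlations are descriptions that follow mainly the 4 group means.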

How the data were processed

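Poly(A)-selected RNA was sequenced from 16 libraries in 4 groups of 4. The deposited gene counts are whole reads per gene; HISAT2 2.0.5, featureCounts 1.5.0-p3 and hg38 are named in the submitters' processing notes. Strand setting, the treatment of reads shared by several genes and whether libraries were directional: not given in the sources used here. Gene coordinates equal those of GENCODE 29 for 58724 of 58735 IDs. Depth was 15876171 to 36261542 reads per library, and no pair of libraries agreed within sampling noise.

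Counts were filtered with filterByExpr, scaled by TMM and fitted over all 16 libraries with edgeR 4.0.16 (robust quasi-likelihood, R 4.3.3), with Benjamini-Hochberg adjustment over 17647 genes and calls at an adjusted p under 0.05. The SE is the absolute log2 fold change divided by the square root of F. Differences between lines are MDA-MB-231 minus SUM159. Alternatives were scaling by RLE or by the upper quartile, DESeq2 1.42.0, voom in limma 3.58.1, other low-count filters, fits of the compared groups only, a replicate block, a threshold of 0.01 and leaving out each library; leaving out 2 SUM159 libraries together was chosen after seeing the data. Scripts were tested on simulated counts. The members and gene lists were chosen with earlier results of these data known. Named genes are the 6 members and, of each other list, the 2 largest called changes per line at a mean of 5 CPM or more, every tested metallothionein, and the 3 genes most correlated with MT2A, MTF1 and SLC30A1.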

Additional observations from a re-analysis of the deposited data

Results flagged for a closer look

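The change with YES1i differed between the 2 lines for all 4 metallothionein genes by edgeR's interaction test. The change in MDA-MB-231 minus that in SUM159 was 1.11 for MT2A, 0.75 for MT1E, 1.53 for MT1X and -1.60 for MT1F on the log2 scale (adjusted p = 0.00613, 0.0192, 8.43e-04 and 0.0217). The first 3 are positive and MT1F is negative. No library stood out within its group for any of the 6 genes by Dixon's test, applied to 24 sets of 4 libraries (6 genes in 4 groups). With 4 libraries this test is weak, and it cannot flag 2 high libraries at once. MT2A in SUM159 with DMSO was such a case, with replicates 1 and 4 at 1594 and 1363 CPM against 910 and 956 CPM.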

How the results depend on the processing

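Of 617 values of the 6 genes under the alternatives, 587 kept their direction and their side of the threshold, 16 lost a call, 4 gained one and 10 changed sign. Members called ranged from 2 to 3 in MDA-MB-231, 3 to 5 for the difference between lines, and stayed at 5 in SUM159 and at 4 between lines in DMSO, when each library was left out, and all counts of genes called stayed within 1.5 times. The members called for the difference fell to 2 at an adjusted p under 0.01. The labels do not say whether a replicate number marks a shared culture. The 8 correlations of same-numbered deviations, from -0.107 to 0.012, showed no pairing but cannot exclude it. With the replicate block, the members called for the difference were 2, with MT2A at 1.099 (adjusted p = 0.0623) and MT1E at 0.723 (adjusted p = 0.0783). The line difference of SLC30A1 was then -0.195 (adjusted p = 0.0836). The line difference of MT1E in DMSO, not called, was -0.001 with upper quartile scaling, -0.015 without a filter and -0.129 with the replicate block, and -0.10 to 0.14 when each library was left out; the difference in the SLC30A1 change was -0.043 to 0.043. Upper quartile scaling moved the median change of all genes in SUM159 from 0.022 to 0.142 and that of the difference from 0.036 to -0.073; higher calls in SUM159 went from 48.7% to 63.4% of those called and from 61.2% to 43.9% for the difference. Among the 19 other named genes with 1463 values, 11 values changed sign, none of them a called value. In SUM159, SLC30A9 was 0.004 with RLE scaling and with DESeq2 and 0.073 with upper quartile scaling, ATP7B was 0.009 with upper quartile scaling, and SLC39A11 was -0.031 to 0.13 when each library was left out; the OSGIN1 difference was -0.14 to 0.065 when each library was left out and 0.034 without both SUM159 libraries that stood apart. The cause was not tested. Precision is limited by depth mainly for MT1F in SUM159.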
